A study of Mus musculus with 9 samples.

Results

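Endothelial cells line the sinusoids and larger vessels of the liver. The genes described here are 34 that mark these cells or encode factors they release towards hepatocytes. They were taken by symbol from a list of sinusoidal genes, general endothelial genes and angiocrine factors. The rule reads no measured value, although the list was drawn up with earlier results of these data known, and all 34 were among the 17154 genes listed in both count tables. By role they comprise 10 scavenger and endocytic genes of the sinusoid, 6 junction and surface proteins, 8 receptors for vascular growth and guidance signals, 3 angiocrine factors, 2 transcription factors and 5 genes of larger vessels or other endothelial functions.

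Gene expression was measured by RNA-seq of whole liver from male C57BL/6 mice in 3 groups of 3 libraries. MMI+T3 mice drank water with 0.1% methimazole, a blocker of thyroid hormone synthesis, over 20 days and were then injected with T3 (triiodothyronine, the hormone form that binds the receptor) on 5 days, with tissue taken 24 hours after the final dose. MMI mice had methimazole and no T3, and CT mice, given as C57BL/6J and about 8 to 12 weeks old, had no treatment. Perchlorate, an inhibitor of thyroidal iodide uptake, is named in the study's methods as a further agent in the drinking water of hypothyroid mice, and the labels name no age for MMI and MMI+T3 mice and no vehicle injection for MMI or CT mice.

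Liver sinusoidal endothelial cells are fenestrated, rest on almost no basement membrane and clear waste molecules from blood through scavenger receptors. Signals through the receptors for vascular endothelial growth factors (VEGF) and angiopoietins keep vessels in place. Endothelial cells around the central vein release Wnt ligands and R-spondin 3, which maintain the gene programme of nearby hepatocytes, and sinusoidal cells release bone morphogenetic proteins (BMP) that set hepcidin production.

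The libraries held 17256776 to 22599227 counts. Mitochondrial genes took 4.99% of the counts in MMI replicate 3 and 3.29% to 3.76% in the other 8 libraries. The 12 hepatocyte markers examined summed to 34660 to 37640 normalised read counts (CPM, scaled to library size with the trimmed mean of M-values, TMM) in MMI+T3, 38530 to 43380 CPM in MMI and 50540 to 53540 CPM in CT. Hepatocyte markers were thus abundant in every library, as the label liver implies, and the 34 endothelial genes together made up 898.1, 914.1 and 967.4 CPM in the MMI+T3 libraries, 835.2, 985 and 973.9 CPM in the MMI libraries and 792.6, 605.8 and 646.1 CPM in the CT libraries. Every member was detected in every library, with a lowest count of 21 (Wnt2 in MMI replicate 2). In bulk liver, fewer endothelial cells and less of a transcript per cell cannot be told apart. CT was deposited in a table of its own, so table and group cannot be told apart either. The labels do not say that the libraries of a group came from separate mice, and p-values therefore measure the spread between libraries, which may be technical.

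MMI livers were first set against CT livers. By edgeR's quasi-likelihood test (adjusted p under 0.05 over all genes tested), 7 of 34 members were called higher in MMI and 0 lower, beside 2.48% of all 13925 genes higher, 2.8% lower and 5.29% in either direction. A gene is termed called below when it passed this edgeR test, unless another fit is named. The 7 were Lyve1, Robo4, Cdh5, Gpr182, Flt4, Esam and Stab1. Of the 34 log2 fold changes, 33 were above 0, beside 52.1% of all genes, and their median was 0.46, beside 0.014 over all genes. An unadjusted p under 0.05 was reached by 23 members, beside 19.2% of all genes. The 3 MMI libraries lay above the 3 CT libraries in 17 members and below them in 0, where 11.9% of all genes lay above and 14.5% below. When either CT replicate 2 or CT replicate 3 was left out, 1 member was called (Lyve1), while the median was between 0.37 and 0.60 whichever library was left out.

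In MMI+T3 livers, 13 of 34 members were called higher than in CT livers and 0 lower, beside 13.3% of all 13847 genes higher, 12.3% lower and 25.6% in either direction. They comprised Cdh5, Flt4, Plvap, Stab1, Lyve1, Eng, Gpr182, Dnase1l3, Kdr, Esam, Pecam1, Aqp1 and Flt1. The fold change was above 0 in 32 members, beside 50.9% of all genes, with a median of 0.45, beside 0.008 over all genes, and 21 members had an unadjusted p under 0.05, beside 37.8%. In 19 members the MMI+T3 libraries lay above the CT libraries and in 0 below, where 22.2% of all genes lay above and 20% below. Leaving out CT replicate 2 gave 7 called members, and so did leaving out CT replicate 3. Both comparisons use the same CT libraries, so their values stand side by side and are no independent evidence of each other.

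Between MMI+T3 and MMI livers, few members differed. Plvap was called higher and 0 members lower, beside 9.83% of all 14109 genes higher, 7.18% lower and 17% in either direction. An unadjusted p under 0.05 was reached by 2 members, Plvap and Tek, beside 30% of all genes. There were 13 members with a fold change above 0, beside 47.8% of all genes, and the median was -0.12, beside -0.021 over all genes. The groups did not overlap in 4 members, with Plvap and Eng higher and Fcgr2b and Tek lower in all 3 MMI+T3 libraries, where 19.1% of all genes lay higher and 15.8% lower. The group means were ordered MMI, MMI+T3, CT in 19 members and MMI+T3, MMI, CT in 13, from high to low. How often these orders occur over all genes was not counted. A p that misses the threshold does not show that T3 left a gene unchanged, and the standard errors (SE) of the 34 log2 fold changes were 0.12 to 0.42.

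**Figure D1:**
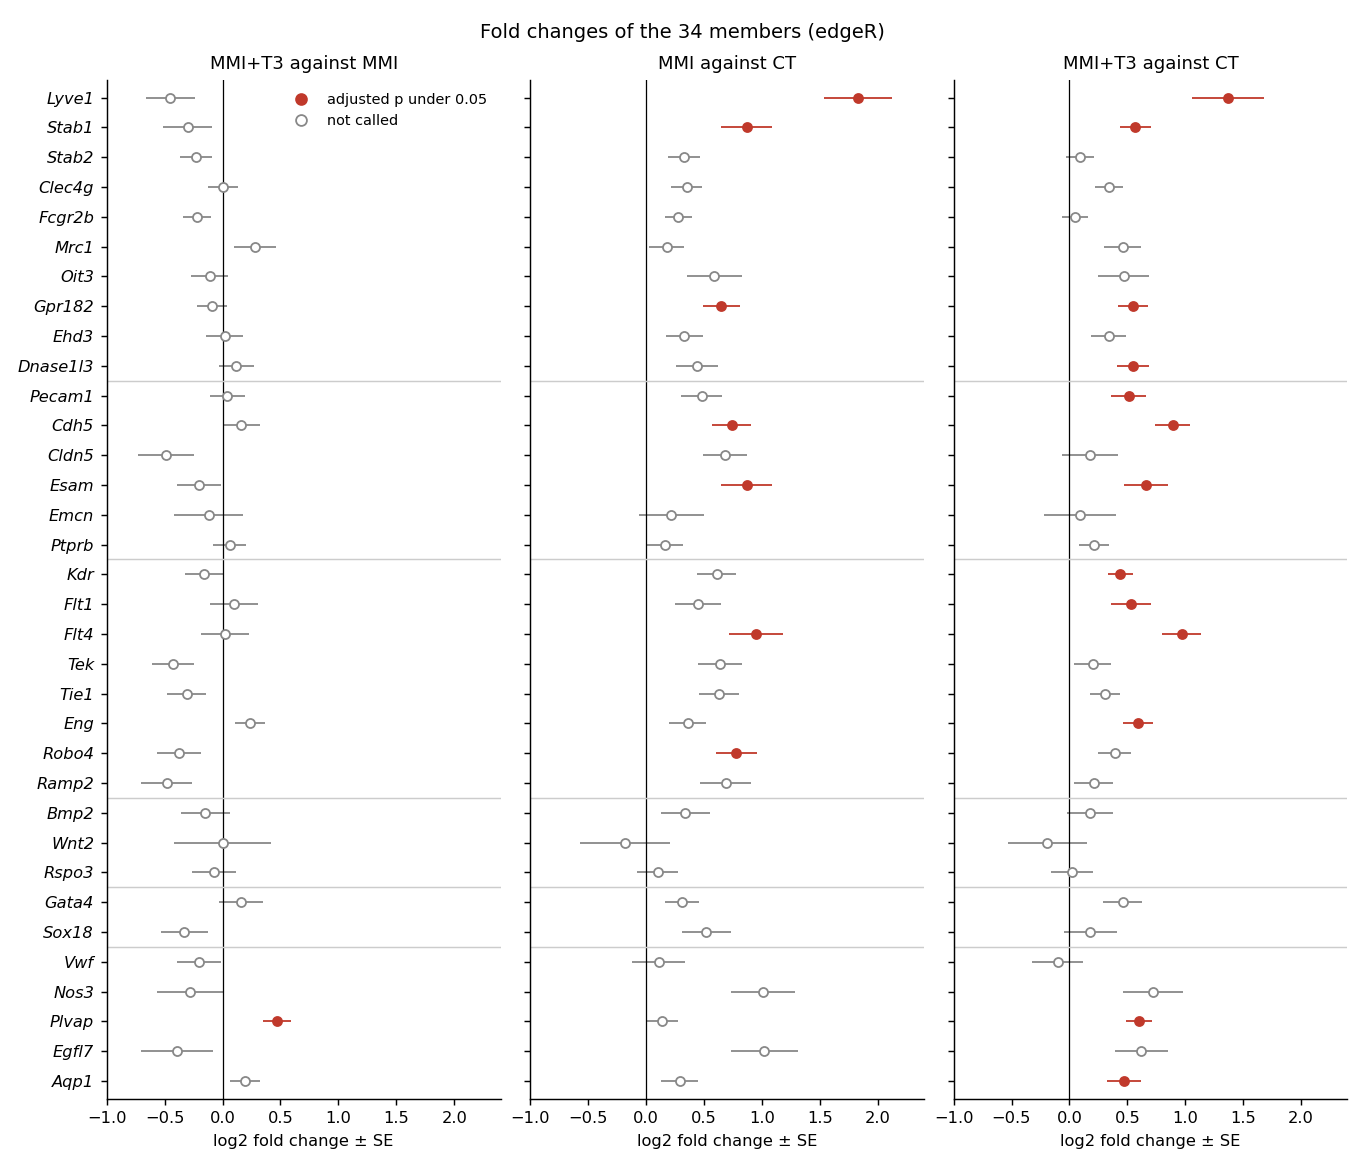
Log2 fold change with its SE (edgeR) of each of the 34 members, grouped by role between the grey lines, for MMI+T3 against MMI, MMI against CT and MMI+T3 against CT. Filled red points had an adjusted p under 0.05, which holds for 1, 7 and 13 members in the 3 panels from left to right, and nearly all points of the CT panels lie right of 0.

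**Figure D2:**
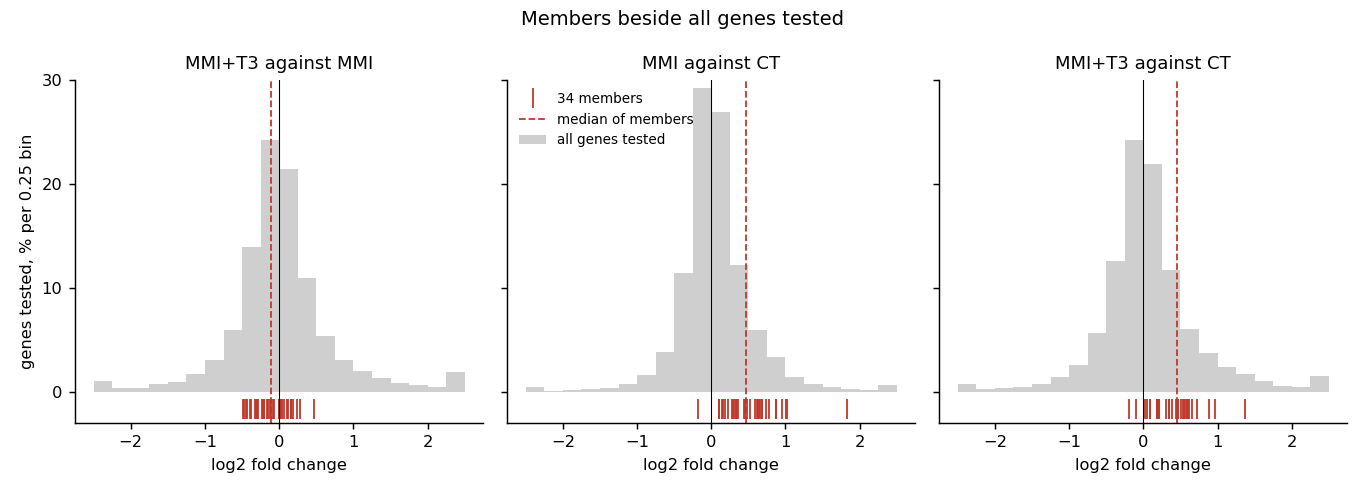
Distribution of log2 fold changes over all genes tested (grey bars, percent of genes per bin of 0.25, with values past the axis in the outermost bins) and the 34 members (red ticks, with their median dashed) in each comparison. The members' median stands at -0.12 for MMI+T3 against MMI, at 0.46 for MMI against CT and at 0.45 for MMI+T3 against CT.

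Promoter sequence is shown for Stab1 and Robo4, called higher in MMI against CT, and for Stab2, the paralogue of Stab1 that was not called, to set the sequences of genes with different results beside each other. RefSeq promoter entries (GRCm38.p6) matched 18 of the 34 members, with 20 entries. Bases that lie before both the RefSeq start and the GENCODE gene start are printed on the strand of the gene, and capitals mark AGGTCA, the hexamer that nuclear receptors, thyroid hormone receptors among them, recognise. They lie at chr14:31168642-31168891 (minus strand) for Stab1, at chr10:87008026-87008192 (minus strand) for Stab2 and at chr9:37401722-37401896 (plus strand) for Robo4.
Stab1: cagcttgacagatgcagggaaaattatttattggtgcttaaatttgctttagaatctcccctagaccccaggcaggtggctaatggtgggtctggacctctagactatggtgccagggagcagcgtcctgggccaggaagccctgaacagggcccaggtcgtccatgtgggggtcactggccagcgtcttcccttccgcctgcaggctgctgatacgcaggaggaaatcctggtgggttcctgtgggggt
Stab2: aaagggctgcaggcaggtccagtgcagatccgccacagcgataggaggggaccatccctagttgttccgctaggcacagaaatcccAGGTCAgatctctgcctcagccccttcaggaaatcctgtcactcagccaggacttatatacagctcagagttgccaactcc
Robo4: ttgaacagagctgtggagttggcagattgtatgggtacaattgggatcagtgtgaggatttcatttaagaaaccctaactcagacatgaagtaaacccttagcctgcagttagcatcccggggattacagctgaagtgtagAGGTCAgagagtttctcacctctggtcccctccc
The hexamer begins 164 bases before the RefSeq start of Stab2 and 109 bases before that of Robo4, and these letters are not in the Stab1 window. Over windows of 250 bases and both strands, AGGTCA was in 6 of the 20 member entries (30%: Fcgr2b, Egfl7, Emcn, Robo4, Stab2 and Ehd3), beside 14% of 32851 promoters. The direct repeat of this hexamer with a spacer of 4 bases, the classical thyroid hormone response element, was in 0 member entries and in 0.0152% of all promoters. The letters AACAAT, bound by SOX factors, were in 2 entries (10%: Emcn and Tek), beside 9.42% of promoters. The ETS family motif CCGGAAG was in 0 entries, beside 6.91% of promoters. For GATA factors, AGATAA was in 0 entries, beside 9.99% of promoters. A match is a description of letters and not of a bound site.

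Among the scavenger and endocytic genes of the sinusoid, Lyve1 had the largest fold change against CT. Lyve1 encodes a hyaluronan receptor of sinusoidal and lymphatic endothelium (ENSMUSG00000030787, chr7:110850607-110863239, minus strand, GRCm38). It was at 10.4, 7.68 and 12.7 CPM in the MMI+T3 libraries, 11.5, 15.6 and 14.4 CPM in the MMI libraries and 6.055, 2.69 and 2.95 CPM in the CT libraries. All MMI+T3 and MMI libraries lay above the highest CT library, and the MMI+T3 and MMI ranges overlapped. MMI exceeded CT by 1.83 on a log2 scale (SE 0.29, adjusted p by edgeR = 0.00434), a 3.56-fold difference. In MMI+T3 against CT it was 1.37 (SE 0.31, adjusted p by edgeR = 0.00868), and in MMI+T3 against MMI -0.45 (SE 0.21, adjusted p by edgeR = 0.182). Lyve1 alone among the 34 was called in both CT comparisons under every alternative run, with log2 fold changes of 1.62 to 2.30 in MMI against CT and 1.17 to 1.84 in MMI+T3 against CT. Of 3 lymphatic vessel markers tested (Pdpn, Prox1 and Reln), none was called by edgeR in any comparison. Pdpn was at 0.583 to 2.61 CPM in MMI+T3, 0.318 to 0.730 CPM in MMI and 0.050 to 1.07 CPM in CT. Between MMI+T3 and MMI, Pdpn differed by 1.70 on the log2 scale, with an unadjusted p of 0.0135 by edgeR. Prox1 and Reln differed there by -0.18 and -0.33, in the direction of Lyve1 and opposite to Pdpn. Between MMI and CT, the differences were 0.34 for Pdpn, -0.18 for Prox1 and 0.09 for Reln. Between MMI+T3 and CT, Pdpn differed by 2.03, in the direction of Lyve1, while Prox1 and Reln lay at or below -0.25. Reln is also among the stellate cell markers. Prox1 was far above Pdpn, at 100.2 to 178.2 CPM in MMI+T3, 134.5 to 157 CPM in MMI and 156.9 to 195 CPM in CT. Which cell types the Prox1 and Reln values came from was not tested. The part of lymphatic vessels in the Lyve1 values was not tested.

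Stab1 and Stab2 encode the stabilins, large scavenger receptors that take up hyaluronan, modified lipoproteins and other waste. Stab1 (ENSMUSG00000042286, chr14:31139013-31168641, minus strand) was at 62.6, 66.0 and 70.3 CPM in MMI+T3, 58.4, 71.1 and 111 CPM in MMI and 46.3, 35.9 and 50.7 CPM in CT. Neither group overlapped with CT, and MMI replicate 3 stood far above the other MMI libraries. Stab1 had a log2 fold change of 0.87 in MMI against CT (SE 0.22, adjusted p by edgeR = 0.0498) and 0.57 in MMI+T3 against CT (SE 0.13, adjusted p by edgeR = 0.00814). The first call was lost without MMI replicate 3 (0.56) and without CT replicate 1, 2 or 3 (0.74 to 0.97), with adjusted p by edgeR of 0.0692 to 0.213, and with limma-voom, upper quartile scaling or the filter of 50 counts. The other call was lost with all 9 libraries in 1 fit (0.58). Stab2 was at 46.6, 51.2 and 40.3 CPM in MMI+T3, 46.2, 54.6 and 59.4 CPM in MMI and 48.5, 39.4 and 41.1 CPM in CT, and these ranges overlapped. Its log2 fold change in MMI against CT was 0.33 (SE 0.14, adjusted p by edgeR = 0.229).

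Gpr182 encodes an atypical chemokine receptor of sinusoidal and lymphatic endothelium. It was at 28.3, 27.4 and 28.9 CPM in MMI+T3, 27.3, 34.3 and 27.1 CPM in MMI and 22.5, 18.0 and 16.6 CPM in CT, with all MMI+T3 and MMI libraries above CT. Its difference on the log2 scale was 0.65 in MMI against CT (SE 0.16, adjusted p by edgeR = 0.0359) and 0.55 in MMI+T3 against CT (SE 0.13, adjusted p by edgeR = 0.00973). The first call was lost without MMI replicate 1 or 2 or CT replicate 2 or 3, at 0.53 to 0.70. Dnase1l3, a secreted DNase that digests DNA in particles of dead cells, was at 38.4, 40.3 and 39.8 CPM in MMI+T3, 29.98, 42.9 and 34.8 CPM in MMI and 32.9, 23.2 and 23.9 CPM in CT. The MMI+T3 libraries were close to each other and above CT, while the MMI range overlapped that of CT. Dnase1l3 had a log2 fold change of 0.55 in MMI+T3 against CT (SE 0.14, adjusted p by edgeR = 0.0141) and 0.44 in MMI against CT (SE 0.18, adjusted p by edgeR = 0.198). The Dnase1l3 call was lost without CT replicate 2 (0.46) or CT replicate 3 (0.47).

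The other sinusoidal genes were the C-type lectin gene Clec4g, the Fc receptor gene Fcgr2b, the mannose receptor gene Mrc1, Oit3, and Ehd3, a membrane-trafficking gene, and none passed edgeR's test in any comparison. Other settings did call some of them higher in MMI+T3 against CT, namely Mrc1 by DESeq2 (0.45), Clec4g and Mrc1 with the filter of 50 counts (0.35 and 0.47), Mrc1 without MMI+T3 replicate 3 (0.55), and Clec4g, Mrc1, Oit3 and Ehd3 without CT replicate 1 (0.44 to 0.77). Without CT replicate 1, Oit3 was also called in MMI against CT (0.90). Ehd3 averaged 58.4 ± 8.66 CPM in MMI+T3, 56.9 ± 9.98 CPM in MMI and 45.9 ± 8.11 CPM in CT (SD, n = 3 each). In the whole role 3 of 10 genes were called higher in MMI against CT, 4 in MMI+T3 against CT and 0 in MMI+T3 against MMI, and all 10 fold changes against CT were above 0. For this role and those below, the shares of all genes called higher were 2.48%, 13.3% and 9.83% in the same order of comparisons. A count of 0 in lists this short says little about a role. Mrc1 and Fcgr2b are also made by macrophages. All 14 macrophage markers examined, among them Clec4f, Marco, Vsig4 and C1qa, were called higher in MMI+T3 against MMI and in MMI+T3 against CT, and 0 in MMI against CT. Summed, they were at 362.4 to 717.3 CPM in MMI+T3, 125.2 to 167.3 CPM in MMI and 155.8 to 197.6 CPM in CT. Mrc1 was at 29.0, 40.6 and 28.2 CPM in MMI+T3, 25.3, 31.3 and 22.8 CPM in MMI and 27.0, 21.7 and 22.0 CPM in CT, highest in the library with the highest macrophage sum (MMI+T3 replicate 2). Fcgr2b was at 37.2, 34.4 and 33.2 CPM in MMI+T3, 40.2, 41.2 and 39.2 CPM in MMI and 38.0, 30.6 and 31.5 CPM in CT. All its MMI+T3 libraries thus lay below MMI, where the macrophage sum was lower. The part of macrophages in these values was not tested.

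**Figure D3:**
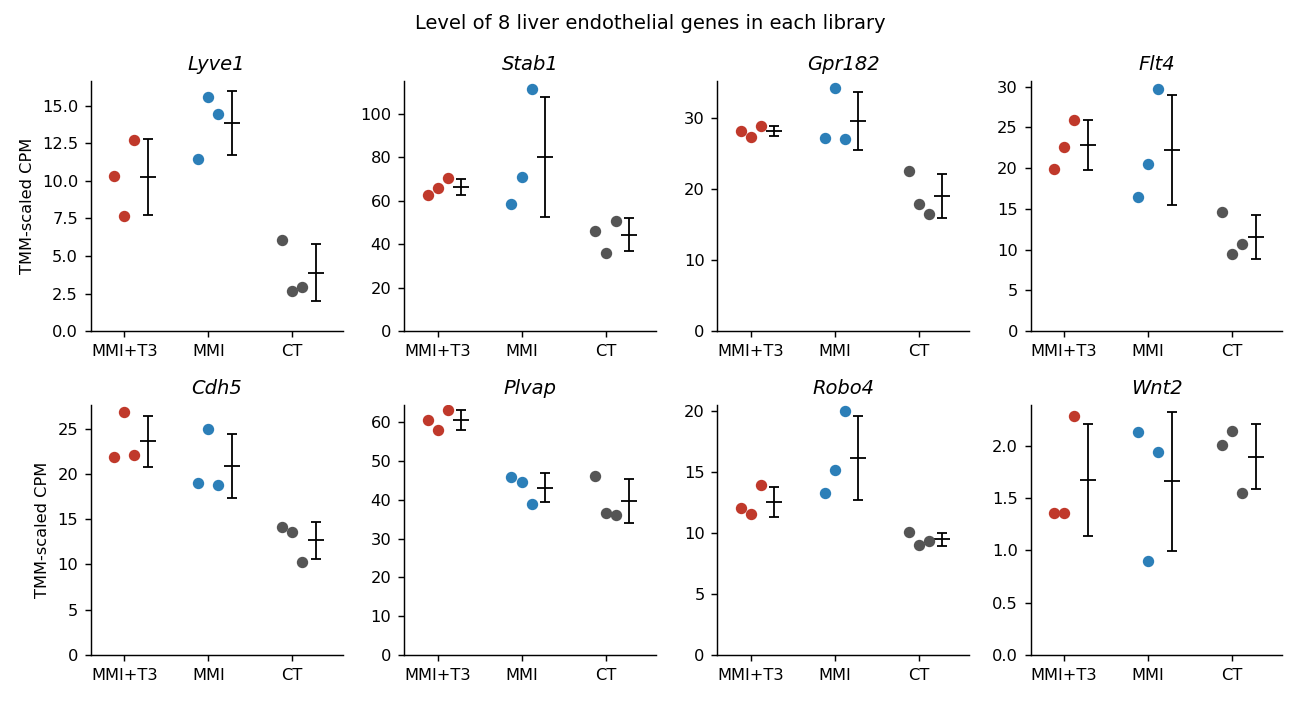
TMM-scaled CPM of 8 endothelial genes in each library (points) with the group mean and SD beside them (black, n = 3), for MMI+T3, MMI and CT from left to right, each axis starting at 0. Lyve1, Stab1, Gpr182, Flt4, Cdh5 and Robo4 lie above CT in all MMI+T3 and MMI libraries, Plvap is highest in MMI+T3, and the groups of Wnt2 overlap.

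Of the 6 junction and surface genes, 2 were called higher in MMI against CT, 3 in MMI+T3 against CT and 0 in MMI+T3 against MMI, and all 6 fold changes against CT were above 0. Cdh5 encodes VE-cadherin, the adhesion molecule of endothelial adherens junctions (ENSMUSG00000031871, chr8:104101625-104144511, plus strand). It was at 21.9, 26.8 and 22.1 CPM in MMI+T3, 19.0, 25.02 and 18.7 CPM in MMI and 14.2, 13.6 and 10.3 CPM in CT. Every MMI+T3 and MMI library was above every CT library. Its difference on the log2 scale was 0.74 in MMI against CT (SE 0.17, adjusted p by edgeR = 0.0345) and 0.89 in MMI+T3 against CT (SE 0.15, adjusted p by edgeR = 0.00177). The call in MMI+T3 against CT was kept whichever library was left out, whereas that in MMI against CT was lost in 5 of 6 such fits (without MMI replicate 1 or 2 or any CT replicate), at 0.59 to 0.82 and with adjusted p by edgeR up to 0.148.

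Esam, an adhesion molecule of endothelial tight junctions and platelets, was at 11.8, 10.6 and 13.1 CPM in MMI+T3, 10.3, 14.8 and 15.1 CPM in MMI and 9.32, 6.14 and 6.70 CPM in CT. Esam had a log2 fold change of 0.87 in MMI against CT (SE 0.22, adjusted p by edgeR = 0.0443) and 0.66 in MMI+T3 against CT (SE 0.19, adjusted p by edgeR = 0.0249). Leaving out MMI replicate 2 or 3 or CT replicate 2 or 3 ended the first Esam call (0.75 to 0.79), and leaving out MMI+T3 replicate 1 or 3 or CT replicate 2 or 3 ended the other (0.55 to 0.66). Pecam1 encodes CD31, which sits at endothelial cell contacts. It was at 15.7, 16.7 and 16.2 CPM in MMI+T3, 13.2, 16.2 and 17.3 CPM in MMI and 13.6, 9.38 and 10.9 CPM in CT, and MMI replicate 1 lay below CT replicate 1. Pecam1 had a log2 fold change of 0.51 in MMI+T3 against CT (SE 0.15, adjusted p by edgeR = 0.0334) and 0.48 in MMI against CT (SE 0.18, adjusted p by edgeR = 0.175). The Pecam1 call was lost in 5 of 6 fits that left out a library, all but the one without CT replicate 1, at 0.39 to 0.53 and with adjusted p by edgeR up to 0.119. Ptprb, the phosphatase VE-PTP, averaged 61.8 ± 4.08 CPM in MMI+T3, 58.6 ± 9.88 CPM in MMI and 52.9 ± 9.32 CPM in CT and was not called by edgeR, except without CT replicate 1 in MMI+T3 against CT (0.35). Cldn5, the claudin of endothelial tight junctions, was at 6.12, 6.95 and 11.2 CPM in MMI+T3, 11.1, 9.70 and 12.96 CPM in MMI and 8.34, 5.82 and 7.10 CPM in CT. Cldn5 had a log2 fold change of 0.68 in MMI against CT (adjusted p by edgeR = 0.0742) and -0.49 in MMI+T3 against MMI (adjusted p by edgeR = 0.204), and without MMI+T3 replicate 3, its highest T3 library, the second was -0.80 and called. The first was called by DESeq2 (0.67) and with the replicate block (0.69). Emcn, the endomucin gene, was at 2.14 to 3.50 CPM in MMI+T3, 2.57 to 3.05 CPM in MMI and 1.95 to 3.07 CPM in CT.

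Of the 8 receptor genes, 2 were called higher in MMI against CT, 4 in MMI+T3 against CT and 0 in MMI+T3 against MMI. Flt4 encodes VEGF receptor 3, which binds VEGF-C and VEGF-D (ENSMUSG00000020357, chr11:49609263-49652739, plus strand). It was at 19.9, 22.7 and 26.0 CPM in MMI+T3, 16.5, 20.6 and 29.7 CPM in MMI and 14.6, 9.49 and 10.6 CPM in CT. All MMI+T3 and MMI libraries lay above CT. The log2 fold change was 0.97 in MMI+T3 against CT (SE 0.17, adjusted p by edgeR = 0.0025) and 0.95 in MMI against CT (SE 0.23, adjusted p by edgeR = 0.0394). The second call was lost without MMI replicate 3 (0.69), CT replicate 2 (0.82) or CT replicate 3 (0.89), with adjusted p by edgeR of 0.0818 to 0.168, and with limma-voom (0.92). Kdr, the main signalling receptor for VEGF-A, was at 38.2, 39.6 and 38.0 CPM in MMI+T3, 38.5, 54.0 and 34.9 CPM in MMI and 32.2, 26.9 and 25.5 CPM in CT. Its libraries did not overlap with CT in either comparison. Kdr had a log2 fold change of 0.44 in MMI+T3 against CT (SE 0.11, adjusted p by edgeR = 0.0147) and 0.61 in MMI against CT (SE 0.17, adjusted p by edgeR = 0.0728). The Kdr call was lost without CT replicate 2 (0.40) or 3 (0.36) and with all 9 libraries in 1 fit (0.45), whereas that last fit, DESeq2, the replicate block and the fit without MMI replicate 3 called Kdr in MMI against CT (0.59 to 0.72). Flt1, a receptor that also acts as a trap for VEGF-A, was at 12.0, 13.1 and 16.9 CPM in MMI+T3, 10.4, 12.5 and 16.1 CPM in MMI and 11.1, 8.17 and 9.54 CPM in CT. It was called in MMI+T3 against CT at 0.53 (SE 0.17, adjusted p by edgeR = 0.0464), and not in MMI against CT at 0.45 (SE 0.20, adjusted p by edgeR = 0.253). The Flt1 call was lost without MMI+T3 replicate 2 or 3 or CT replicate 2 or 3 (0.37 to 0.58), with limma-voom (0.52) and with all 9 libraries in 1 fit (0.55).

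Eng encodes endoglin, a co-receptor for BMP9 and BMP10 (ENSMUSG00000026814, chr2:32646595-32682669, plus strand). It was at 73.7, 74.1 and 79.8 CPM in MMI+T3, 57.2, 65.2 and 68.3 CPM in MMI and 61.0, 41.7 and 47.1 CPM in CT. The MMI+T3 libraries lay above all other libraries. Eng had a log2 fold change of 0.59 in MMI+T3 against CT (SE 0.13, adjusted p by edgeR = 0.00891), 0.36 in MMI against CT (SE 0.16, adjusted p by edgeR = 0.232) and 0.24 in MMI+T3 against MMI (SE 0.13, adjusted p by edgeR = 0.242). Robo4, a guidance receptor that stabilises vessels, was at 12.1, 11.6 and 13.9 CPM in MMI+T3, 13.2, 15.2 and 20.0 CPM in MMI and 10.1, 8.996 and 9.34 CPM in CT, so that its groups stood in a different order from those of Eng. The log2 fold change of Robo4 was 0.78 in MMI against CT (SE 0.18, adjusted p by edgeR = 0.0314) and 0.39 in MMI+T3 against CT (SE 0.14, adjusted p by edgeR = 0.0633). The first was lost without MMI replicate 3 (0.60) or any CT replicate (0.74 to 0.82). The angiopoietin receptor gene Tek and its relative Tie1 were not called by edgeR, but in MMI against CT both were called by DESeq2 (0.64 and 0.62) and with all 9 libraries in 1 fit (0.64 and 0.62), Tie1 also with the replicate block (0.62) and without MMI replicate 2 (0.76), and Tek without MMI replicate 3 (0.75). Ramp2, a receptor activity-modifying protein gene that pairs with the adrenomedullin receptor, was called in MMI against CT without MMI replicate 2 (0.86). Tek was at 8.26, 8.80 and 8.66 CPM in MMI+T3, 11.1, 13.6 and 9.61 CPM in MMI and 8.15, 6.36 and 7.70 CPM in CT, and its log2 fold change was -0.43 in MMI+T3 against MMI (SE 0.18, adjusted p by edgeR = 0.122) and 0.64 in MMI against CT (SE 0.19, adjusted p by edgeR = 0.079). All 8 receptor genes had an unadjusted p under 0.05 in MMI against CT, where 19.2% of all genes did, and 2 of them passed adjustment.

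The 3 angiocrine factors were not called in any comparison, by edgeR or under any alternative run. Wnt2, a Wnt ligand of pericentral and sinusoidal endothelium, was at 1.36, 1.36 and 2.29 CPM in MMI+T3, 2.13, 0.901 and 1.94 CPM in MMI and 2.00, 2.14 and 1.55 CPM in CT, on counts of 21 to 47 a library. Its ranges overlapped throughout, and the log2 fold change was 0.00 in MMI+T3 against MMI (SE 0.42, adjusted p by edgeR = 0.997), -0.18 in MMI against CT (SE 0.39, adjusted p by edgeR = 0.839) and -0.19 in MMI+T3 against CT (SE 0.34, adjusted p by edgeR = 0.721). Rspo3, which enhances Wnt signalling through LGR receptors, was at 6.80, 6.17 and 8.27 CPM in MMI+T3, 7.21, 6.95 and 7.82 CPM in MMI and 7.64, 7.19 and 5.95 CPM in CT. Rspo3 had a log2 fold change of -0.07 in MMI+T3 against MMI (SE 0.19, adjusted p by edgeR = 0.855), 0.10 in MMI against CT (SE 0.18, adjusted p by edgeR = 0.821) and 0.02 in MMI+T3 against CT (SE 0.18, adjusted p by edgeR = 0.946). Bmp2, a BMP ligand that drives hepcidin expression in hepatocytes, was at 14.5, 11.9 and 18.8 CPM in MMI+T3, 14.97, 21.0 and 13.5 CPM in MMI and 16.4, 11.1 and 12.0 CPM in CT. These libraries overlapped, with a log2 fold change of -0.15 in MMI+T3 against MMI (SE 0.21, adjusted p by edgeR = 0.694), 0.34 in MMI against CT (SE 0.21, adjusted p by edgeR = 0.415) and 0.18 in MMI+T3 against CT (SE 0.20, adjusted p by edgeR = 0.554). The SE of Wnt2 was the largest of the 34 in each comparison.

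Both transcription factors of the list had fold changes above 0 against CT and neither was called by edgeR. Gata4, which specifies sinusoidal endothelium and is also made by other liver cells, was at 34.3, 24.7 and 21.0 CPM in MMI+T3, 26.3, 24.6 and 19.9 CPM in MMI and 21.5, 18.7 and 17.6 CPM in CT. Gata4 had a log2 fold change of 0.46 in MMI+T3 against CT (SE 0.17, adjusted p by edgeR = 0.074), and it was called there with the replicate block (0.44) and without MMI+T3 replicate 3 (0.60). Sox18, a factor of vascular and lymphatic development, averaged 7.002 ± 1.49 CPM in MMI+T3, 8.68 ± 0.658 CPM in MMI and 6.11 ± 1.54 CPM in CT (SD, n = 3 each).

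Among the genes of larger vessels and other functions, Plvap was the 1 member called in MMI+T3 against MMI. Plvap forms the diaphragms of endothelial fenestrae and caveolae (ENSMUSG00000034845, chr8:71497765-71511752, minus strand). It was at 60.5, 57.9 and 63.0 CPM in MMI+T3, 45.9, 44.6 and 39.0 CPM in MMI and 46.2, 36.6 and 36.1 CPM in CT. The MMI+T3 libraries lay above all others, and MMI and CT overlapped. The log2 fold change was 0.47 in MMI+T3 against MMI (SE 0.12, adjusted p by edgeR = 0.0225), 0.60 in MMI+T3 against CT (SE 0.11, adjusted p by edgeR = 0.00347) and 0.14 in MMI against CT (SE 0.14, adjusted p by edgeR = 0.637). The first call was lost in 4 of 6 fits that left out a library (without MMI+T3 replicate 1, 2 or 3 or MMI replicate 1), with adjusted p by edgeR of 0.0512 to 0.0824 and log2 fold changes of 0.44 to 0.52. Aqp1, a water channel of endothelium and cholangiocytes, was at 72.1, 69.3 and 83.7 CPM in MMI+T3, 59.7, 70.9 and 64.5 CPM in MMI and 66.7, 49.2 and 44.9 CPM in CT, and was called in MMI+T3 against CT at 0.47 (SE 0.15, adjusted p by edgeR = 0.039). Without MMI+T3 replicate 1 or 3 or CT replicate 2 or 3 this call was lost, at 0.35 to 0.50 and with adjusted p by edgeR up to 0.144. For Aqp1 the log2 fold change in MMI against CT was 0.29 (SE 0.16, adjusted p by edgeR = 0.353).

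Egfl7, a protein of the vessel matrix, was at 23.6, 19.8 and 35.9 CPM in MMI+T3, 23.2, 26.6 and 52.5 CPM in MMI and 18.1, 12.8 and 20.2 CPM in CT, with replicate 3 well above the others in MMI+T3 and in MMI. Its log2 fold change of 1.02 in MMI against CT did not pass adjustment (SE 0.29, adjusted p by edgeR = 0.0709), and neither did that of Nos3, the endothelial nitric oxide synthase, at 1.01 (SE 0.28, adjusted p by edgeR = 0.0678). Both were called there by DESeq2 (1.01 for Egfl7 and 1.00 for Nos3), with the replicate block (0.95 and 0.99) and without MMI replicate 2 (1.16 and 1.17), and Egfl7 without MMI replicate 1 (1.23). Egfl7 was called in MMI+T3 against CT by DESeq2 (0.62), with the block (0.61) and without MMI+T3 replicate 2 (0.79), and Nos3 without MMI+T3 replicate 1 (0.92). Vwf, the von Willebrand factor gene that marks larger vessels, averaged 6.41 ± 0.344 CPM in MMI+T3, 7.27 ± 0.891 CPM in MMI and 6.81 ± 2.00 CPM in CT. Exons of Nos3 overlap those of Gm15587 and Atg9b on the other strand over 1334 bases, those of Rspo3 overlap Gm48159 over 404 bases and those of Stab1, Stab2, Clec4g, Fcgr2b, Gpr182, Egfl7 and Eng overlap genes on the other strand over 61 to 155 bases. On the same strand, Ramp2 shares 1103 bases with Vps25, and Egfl7 shares 337 bases with Gm20532 and Mir126a. The strand setting of the counting was not given in the sources used here, so the values of these genes are uncertain to that extent.

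**Figure D4:**
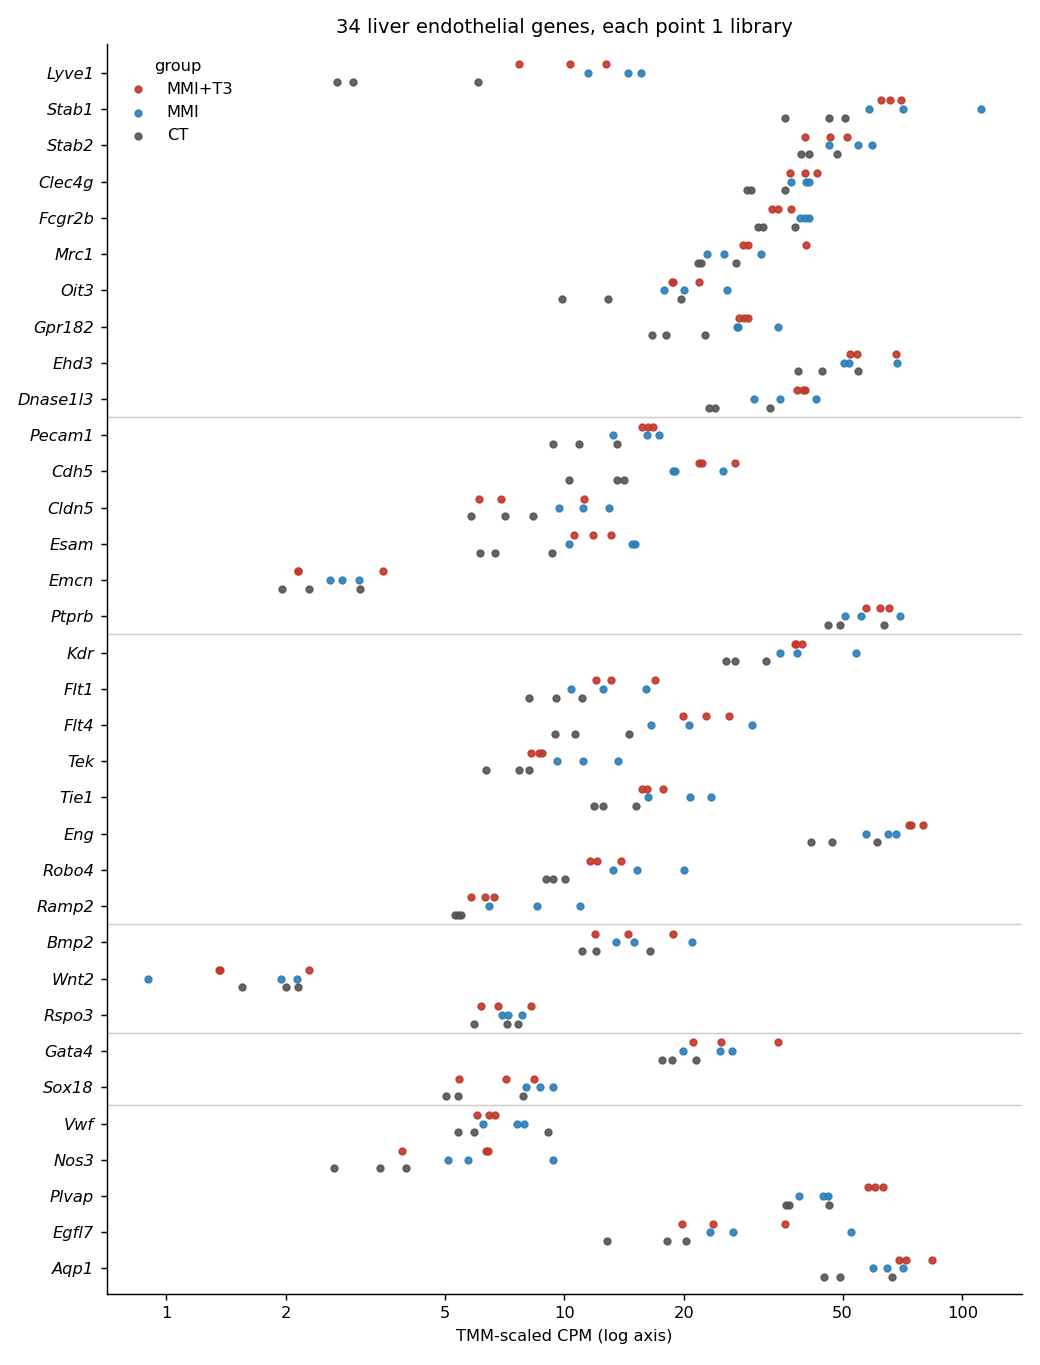
TMM-scaled CPM of all 34 members on a log axis, each point 1 library, with MMI+T3 above MMI above CT in each row and roles separated by grey lines. Values, not divided by gene length, run from 0.901 CPM (Wnt2 in MMI replicate 2) to 111 CPM (Stab1 in MMI replicate 3).

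Per kilobase of exon, Plvap and Aqp1 were the most abundant members. Plvap stood at 30.4 ± 1.29 CPM per kb in MMI+T3, 21.7 ± 1.85 in MMI and 19.9 ± 2.85 in CT, and Aqp1 at 28.5 ± 2.91, 24.7 ± 2.13 and 20.4 ± 4.40 in the same order of groups (SD, n = 3 each). The libraries of these neighbours overlapped in every group. Lyve1, by level per kb, ranked 22 of 34 in MMI+T3, 17 in MMI and 29 in CT. Vwf was the lowest by this scale, at 0.399 ± 0.0214 CPM per kb in MMI+T3, 0.453 ± 0.0555 in MMI and 0.424 ± 0.124 in CT.

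The libraries of a group differed in the level of these genes as a whole. CT replicate 1 was the highest CT library for 26 of 34 members and CT replicate 2 the lowest for 22, while CT replicate 1 was the highest for 33.5% of all genes of at least 5 CPM. Without MMI replicate 3 and CT replicate 1 together, an alternative chosen after the data were seen, 7 members were called in MMI against CT, with a median log2 fold change of 0.55. Erythroid markers can report blood left in the tissue, although whether they did so here was not tested. They summed to 123.7 to 208.7 CPM in MMI+T3, 125.8 to 211.5 CPM in MMI and 251 to 315 CPM in CT. This sum was thus highest in CT, where the endothelial genes were lowest. Within it, Alas2 was at 25.7 to 46.5, 52.3 to 91.6 and 110.8 to 162.5 CPM in the same order of groups. The globin gene Hba-a1 was at 37.2 to 83.1, 33.2 to 76.5 and 62.0 to 76.6 CPM, with overlap between all groups. Hbb-bs was at 34.1 to 85.8, 37.0 to 60.7 and 66.8 to 72.7 CPM, so that its CT range overlapped MMI+T3 and not MMI. The hepatocyte sums given above were also highest in CT. Alb was their largest part, averaging 12160 CPM in MMI+T3, 20200 in MMI and 24350 in CT. Of the 12 markers, 3 had a log2 fold change above 0 and 9 below in each comparison with CT. Hnf4a averaged 875.4, 766.6 and 720.9 CPM in the same order of groups, opposite to the sums. Serpina1a and Ahsg were highest in MMI+T3, at averages of 1858 and 5587 CPM. What part either list has in the difference from CT was not tested. Of 13 stellate cell markers, 0 were called in MMI+T3 against MMI and in MMI against CT, and 1 higher (Col3a1) in MMI+T3 against CT, with summed levels of 392.6 to 502.8 CPM in MMI+T3, 460.9 to 529.2 CPM in MMI and 349 to 562.4 CPM in CT.

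To set members against each other inside a library, each count was divided by the geometric mean of 9 general endothelial genes (Pecam1, Cdh5, Tie1, Tek, Esam, Ptprb, Egfl7, Robo4 and Eng), as a log2 ratio and with no test. That mean was 20.66, 20.84 and 22.77 CPM in MMI+T3, 20.28, 23.79 and 25.12 CPM in MMI and 17.15, 13.29 and 14.99 CPM in CT. Relative to it, Lyve1 was higher in MMI than in CT by 1.30 on the log2 scale, with ratios of -0.82, -0.61 and -0.80 in MMI and -1.50, -2.29 and -2.34 in CT. It was the 1 higher member of the 25 outside the denominator, and 8 were lower with no overlap, beside 0.974% of genes of at least 5 CPM higher and 73.9% lower. In MMI+T3 against CT, Lyve1 (0.95), Flt4 (0.49) and Plvap (0.11) lay higher and 5 members lower (Stab2, Fcgr2b, Ramp2, Wnt2 and Rspo3), beside 4.03% and 65.6% of genes. For Plvap the lowest MMI+T3 ratio was 1.47 and the highest CT ratio 1.46. A higher denominator lowers every ratio, and the denominator was higher in every MMI+T3 and MMI library than in CT, so a lower ratio says only that a gene rose less than these 9 or fell.

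In MMI+T3 against MMI, Plvap lay higher relative to the general endothelial genes by 0.59 and Aqp1 by 0.31, and Lyve1 lower at -0.35, beside 21.9% of genes higher and 8.75% lower. For Plvap the ratios were 1.55, 1.47 and 1.47 in MMI+T3 and 1.18, 0.91 and 0.63 in MMI. The separation of Lyve1 was not seen with 6 of 10 other denominators. Rspo3 stood at -1.60, -1.75 and -1.46 in MMI+T3, -1.49, -1.77 and -1.68 in MMI and -1.16, -0.89 and -1.33 in CT, so that its groups, which overlapped in CPM, lay below CT as a ratio.

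**Figure D5:**
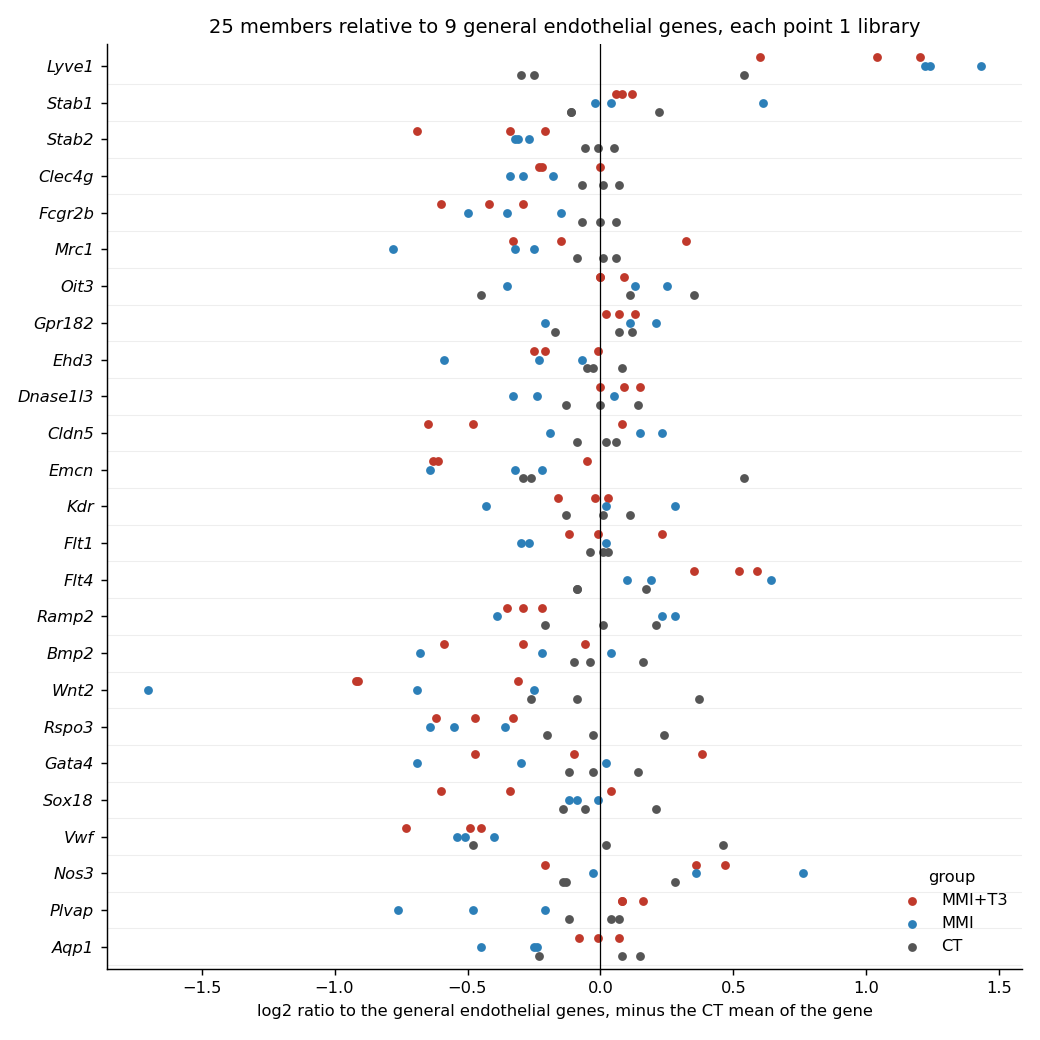
Log2 ratio of each of 25 members to the geometric mean of 9 general endothelial genes, drawn as the distance from the gene's own CT mean, each point 1 library, with MMI+T3 above MMI above CT in each row. Lyve1 lies 1.30 (MMI) and 0.95 (MMI+T3) above its CT mean, and Wnt2, Rspo3 and Stab2 lie below theirs.

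Further endothelial genes outside the 34 were examined as a list of 26, of which 25 were tested. In MMI against CT 3 were called higher (Mmrn2 at 0.81, Tm4sf1 at 0.77 and Rasip1 at 0.97 on the log2 scale) and 0 lower, with a median of 0.37, where 2.48% of all genes were called higher. In MMI+T3 against CT 5 were called higher and 0 lower, led by Tspan7 at 0.60 and Cd34 at 1.47, with a median of 0.35, where 13.3% of all genes were called higher. In MMI+T3 against MMI, Cd34, a surface sialomucin of capillaries and progenitor cells, was the 1 gene called, where 9.83% of all genes were called higher, at 1.24 (SE 0.32, adjusted p by edgeR = 0.0227). The level of Cd34 was low, at 2.38 to 3.70 CPM in MMI+T3, 1.10 to 1.67 CPM in MMI and 0.850 to 1.43 CPM in CT.

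Ligands and partners of the members' receptors moved in both directions, with 15 genes tested. Nrp1, the neuropilin co-receptor for VEGF-A, rose in MMI+T3 against MMI by 1.94 on the log2 scale (SE 0.16, adjusted p by edgeR = 1.67e-05) and was lower in MMI than in CT at -0.67 (SE 0.14, adjusted p by edgeR = 0.0211). Angpt1, an agonist ligand of Tek, rose by 1.25 in MMI+T3 against MMI (SE 0.35, adjusted p by edgeR = 0.0343). Its level was low, at 1.85 to 2.72 CPM in MMI+T3 and 0.787 to 1.04 CPM in MMI. Vegfd, a ligand of Flt4, was lower in MMI+T3 than in MMI at -1.64 (SE 0.31, adjusted p by edgeR = 0.00422) and higher in MMI than in CT at 1.70 (SE 0.36, adjusted p by edgeR = 0.0207). These comparisons share the MMI libraries, so an opposite sign in them is not independent. In this list 2 genes were called higher and 1 lower in MMI+T3 against MMI, 2 higher and 1 lower in MMI against CT, and 3 higher and 0 lower in MMI+T3 against CT. For these and the lists below, the shares of all genes called higher and lower were 9.83% and 7.18% in MMI+T3 against MMI, 2.48% and 2.8% in MMI against CT and 13.3% and 12.3% in MMI+T3 against CT.

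Genes of the pathways of the angiocrine factors, with ligands, receptors and targets among them, were examined beside these factors. In the BMP and iron list of 15 genes, Hamp2, a hepcidin paralogue, was higher in MMI than in CT at 2.45 (SE 0.17, adjusted p by edgeR = 1.35e-05) and lower in MMI+T3 than in MMI at -3.45 (SE 0.35, adjusted p by edgeR = 6.81e-05) and than in CT at -1.01 (SE 0.33, adjusted p by edgeR = 0.0493). Hamp, the hepcidin gene itself, was at 467.1, 412.4 and 435.0 CPM in MMI+T3, 500.5, 279.0 and 548.3 CPM in MMI and 278.5, 270.3 and 307.0 CPM in CT. Hamp was called higher in MMI+T3 against CT at 0.61 (SE 0.10, adjusted p by edgeR = 0.0011), and its values were 0.65 in MMI against CT (SE 0.22, adjusted p by edgeR = 0.122) and -0.04 in MMI+T3 against MMI (SE 0.23, adjusted p by edgeR = 0.937). Hamp and Hamp2 thus lay on opposite sides of CT in MMI+T3. Id1 and Smad7, targets of BMP signalling, were higher in MMI than in CT at 1.84 (SE 0.30, adjusted p by edgeR = 0.00558) and 1.08 (SE 0.22, adjusted p by edgeR = 0.016). In the list, 1 gene was called higher and 1 lower in MMI+T3 against MMI, 3 and 0 in MMI against CT, and 5 and 2 in MMI+T3 against CT. Of 18 genes of the Wnt and R-spondin pathway and its pericentral targets, 6 were called higher and 4 lower in MMI+T3 against MMI, 1 and 4 in MMI against CT, and 4 and 5 in MMI+T3 against CT. The R-spondin receptor gene Lgr5 was lower in MMI than in CT at -1.20 (SE 0.24, adjusted p by edgeR = 0.0157). It was among the 6 genes higher in MMI+T3 than in MMI, at 0.99 (SE 0.25, adjusted p by edgeR = 0.0191). Lgr4, a further receptor of this kind, was also higher there, at 0.79 (SE 0.17, adjusted p by edgeR = 0.00878). The pericentral enzymes Oat, Cyp2e1 and Cyp1a2, from the 4 called lower, were lower in MMI+T3 than in MMI at -2.85, -1.67 and -0.94. Glul was higher in MMI+T3 than in MMI at 1.34 and lower in MMI than in CT at -0.91.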

How the data were processed

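Liver RNA was sequenced as paired reads from libraries that the study's methods call stranded mRNA. The authors deposited raw read counts per gene, with CT in a table apart from that of the MMI+T3 and MMI libraries. GRCm38, HTSeq 0.6.1p1 and HISAT2 2.1.0 appear in the submitters' processing notes, whereas the study's methods name STAR, so which aligner made the deposited counts is not settled, and the strand setting of the counting is not given in the sources used here. The tables list 17758 and 17477 genes, 17154 in both.

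Groups were taken from sample titles. Libraries of a group all differed beyond counting noise (chi-square divided by its degrees of freedom, 13 to 54.6), and none was merged. For each comparison, only its 6 libraries entered the fit, made with edgeR 4.0.16 in R 4.3.3 (TMM scaling, default filter with a minimum count of 10, quasi-likelihood F-test, two-sided), with Benjamini-Hochberg adjustment over all genes tested and a threshold of 0.05. All 34 members passed the filter in every comparison. CPM were TMM-scaled over 9 libraries and the genes in both tables. Ratios to 9 general endothelial genes used log2 of the count plus 0.5 and had no test. Coordinates and exon lengths came from GENCODE M21, and promoters from RefSeq. The procedure was tested on simulated data. For the main fits, libraries were taken as unpaired. Same-numbered libraries correlated at -0.10 to 0.20 in their deviations from group means. Differently numbered libraries were not compared, so these values do not settle whether replicate numbers pair libraries.

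The members and lists were chosen with earlier results of these data known, the roles were assigned for this work, and the context lists were picked for their function. Members called in at least 1 comparison and the 3 angiocrine factors are given in every library, others by counts, ranges or means. Of the context lists, up to 3 called genes with the smallest adjusted p per comparison were eligible to be named. Other settings tried were scaling by DESeq2 size factors or by the upper quartile, dropping the filter, requiring 50 counts in 3 libraries, DESeq2 1.42.0, limma-voom (limma 3.58.1), all 9 libraries in 1 fit, a replicate block, each library left out, and 10 other denominators for the ratio.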

Additional observations from a re-analysis of the deposited data

How the results depend on the processing

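For MMI against CT, 7 members were called by edgeR, 13 by DESeq2, 4 by limma-voom and 12 with the replicate block, and 1 to 8 when a library was left out (1 without CT replicate 2 and 1 without CT replicate 3). Over all genes this comparison had 736 calls, 1154 by DESeq2, and 341 to 783 when a library was left out (341 without CT replicate 2 and 382 without CT replicate 3). Without MMI replicate 3 and CT replicate 1, chosen after the data were seen, there were 849. For MMI+T3 against CT, 13 members were called, and 7 to 18 when a library was left out. For MMI+T3 against MMI, 0 to 1 members were called higher and 0 to 1 lower when a library was left out. The replicate block changed no other count of members by over 1.5 times, and whether its numbers pair the libraries is not settled. With it, 984 genes were called in MMI against CT, beside 736 in the main fit. It gave 2530 beside 2400 in MMI+T3 against MMI, and 3759 beside 3548 in MMI+T3 against CT. The members' median kept its sign under every alternative run, at -0.17 to -0.04, 0.37 to 0.60 and 0.35 to 0.53 for MMI+T3 against MMI, MMI against CT and MMI+T3 against CT when a library was left out.

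Lower ratios without overlap in MMI+T3 against MMI numbered 1, and 0 with the denominator without Cdh5, Esam, Ptprb, Egfl7 or Eng or with all members of at least 5 CPM. In MMI+T3 against CT they numbered 5, and 3 without Cdh5. Higher ratios without overlap in MMI+T3 against CT numbered 3, and 2 without Cdh5, Tie1, Tek, Ptprb or Robo4. Sign changes in named members were seen only where no call was made. Over all members and settings they numbered 38 in MMI+T3 against MMI, 4 in MMI against CT and 9 in MMI+T3 against CT. Those in MMI+T3 against MMI included Flt4, Kdr, Pecam1, Flt1, Gpr182, Oit3, Ehd3, Clec4g, Nos3 and Egfl7. The values that follow are therefore examples. For Wnt2 in MMI+T3 against MMI, the value near 0 became 0.01 with DESeq2 size factors, with no filter and with all 9 libraries, 0 by DESeq2, 0.07 by limma-voom and 0.03 with the replicate block. With 1 library left out, MMI+T3 against MMI gave -0.31 to 0.23 for Wnt2, -0.47 to 0.03 for Stab1, -0.34 to 0.06 for Bmp2 and -0.19 to 0.03 for Rspo3, MMI against CT gave -0.41 to 0.12 for Wnt2 and -0.01 to 0.17 for Rspo3, and MMI+T3 against CT gave -0.02 to 0.36 for Bmp2 and -0.11 to 0.11 for Rspo3. The cause of these changes was not tested. Wnt2 had the lowest counts of the 34 members, at 21 to 47 a library.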

Other observations

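Further gene groups of the vessel wall were examined for their values alone. Of 14 other endothelial transcription factor genes, Nr2f2, which specifies venous identity, was lower in MMI+T3 than in MMI at -0.83 on the log2 scale (SE 0.12, adjusted p by edgeR = 0.000888) and lower in MMI+T3 than in CT at -0.71 (SE 0.10, adjusted p by edgeR = 0.000523). Klf2, a factor that responds to flow, was called higher in MMI+T3 against CT at 0.66 (SE 0.16, adjusted p by edgeR = 0.0142), and Hhex was lower at -0.84 (SE 0.21, adjusted p by edgeR = 0.0134). None of the 14 was called by edgeR in MMI against CT, where 5 had an unadjusted p under 0.05. Hepatocytes also make Nr2f2 and Hhex, and the cell type behind these values was not tested.

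Of 6 Notch pathway genes tested, Jag1, a Notch ligand of vessels and bile ducts, was lower in MMI+T3 than in MMI at -0.71 (SE 0.20, adjusted p by edgeR = 0.0308). The endothelial receptor gene Notch4 stood higher in MMI than in CT at 1.14 (SE 0.26, adjusted p by edgeR = 0.031). The ligand genes Dll1 and Dll4 were higher in MMI+T3 than in CT at 0.64 (SE 0.16, adjusted p by edgeR = 0.0161) and 0.95 (SE 0.25, adjusted p by edgeR = 0.0194).

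Markers of other cells were examined in the same fits. Of 5 cholangiocyte markers, 1 was called lower in MMI+T3 against CT (Sox9 at -0.78) and 0 in the other comparisons. Of 5 erythroid markers, 1 was called lower in MMI+T3 against MMI (Alas2), 2 in MMI against CT (Hbb-bt and Alas2) and 1 in MMI+T3 against CT (Alas2). No lymphocyte, neutrophil or lymphatic vessel marker was called by edgeR, where an unadjusted p under 0.05 was reached by 1, 0 and 1 of them in MMI+T3 against MMI, by 0, 0 and 0 in MMI against CT and by 0, 1 and 1 in MMI+T3 against CT. Of 2 platelet markers, Itga2b was called higher in MMI+T3 against CT at 0.86.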
